A study of Mus musculus with 5 samples.

Results

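Voltage-gated potassium channel genes were examined for trimethylation of lysine 27 of histone H3 (H3K27me3) in dermal fibroblasts with and without Kdm6b. The set held the autosomal protein-coding genes of the GENCODE M21 annotation of mouse genome mm10 whose symbol is Kcn followed by a, b, c, d, e, f, g, h, q, s or v, which gave 46 genes of 20807, in 12 subfamilies. That spelling also takes in the Kcnab genes, which code for cytoplasmic subunits and not for pores, and leaves out 2 genes on the X chromosome, Kcnd1 and Kcne1l. The compared fibroblasts came from Kdm6b-cKO mice, in which Dermo1 (Twist2) Cre deletes floxed Kdm6b (Kdm6b fl/fl) in the dermis, and from WT mice, both at embryonic day E18.5. Each group had 2 ChIP-seq libraries, replicates 3 and 4 for Kdm6b-cKO and replicates 7 and 9 for WT. The dermal cells of both groups were expanded in AmnioMAX medium before chromatin was made, and the labels describe a flow sort for GFP for every sample, WT included. The labels do not say whether the libraries of a group came from separate embryos, so the p-values below measure only the spread between these libraries, which may be technical. An input library was not used here.

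Voltage-gated potassium channels open when the membrane depolarises and let potassium out of the cell, which ends action potentials in neurons and muscle and helps set the resting potential elsewhere. Pore-forming subunits assemble as tetramers, silent subunits modify their partners, and the Kcne and Kcnab products are auxiliary subunits. H3K27me3 is laid down by Polycomb repressive complex PRC2 over silent genes, often around CpG-rich promoters of genes that belong to other lineages, and KDM6B (JMJD3) is an enzyme that removes it.

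The values were lists of enriched regions (broad peaks), called separately in each library. For every gene the length under peaks was measured in the promoter, meaning the transcription start site (TSS) with 3 kb on each side, and in the wider window of 25 kb on each side. A promoter with at least 500 bp under peaks was called marked. Kdm6b-cKO replicates 3 and 4 held 38508 and 36626 autosomal peaks over 133.3 and 115.3 Mb, against 25671 and 19210 peaks over 81.8 and 55.3 Mb in WT replicates 7 and 9. WT replicate 9 therefore had the fewest peaks and the shortest covered length, and a difference of this size across the whole genome stood behind every comparison of a single gene. Of the markers of dermal fibroblasts, 0 of 13 had a marked promoter in any library, while markers of other cell types were marked in at least 1 library at 5 of 5 (keratinocyte), 3 of 3 (skeletal muscle), 3 of 4 (melanocyte and Schwann), 2 of 4 (endothelial), 2 of 3 (neuron) and 1 of 3 (immune). Keratinocyte markers were marked at 4 and 4 in the Kdm6b-cKO and at 2 and 2 in the WT libraries. The mark does not measure the deletion, so the loss of Kdm6b itself could not be checked in these files.

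The promoters below were chosen to show how unlike the sequences under or beside the mark were. Kcnc1 was marked in all 4 libraries, Kcnab2 and Kcns3 in the 2 Kdm6b-cKO but in no WT library, Kcna5 and Kcna10 lay in windows that gained length in Kdm6b-cKO, and Kcne4 carried no peak in any library. Each is the 300 bases from 250 before to 50 after the RefSeq start, 5′ to 3′ on the gene's strand in build GRCm38.p6 (mm10), with the dinucleotide CG in capitals.
Kcnc1: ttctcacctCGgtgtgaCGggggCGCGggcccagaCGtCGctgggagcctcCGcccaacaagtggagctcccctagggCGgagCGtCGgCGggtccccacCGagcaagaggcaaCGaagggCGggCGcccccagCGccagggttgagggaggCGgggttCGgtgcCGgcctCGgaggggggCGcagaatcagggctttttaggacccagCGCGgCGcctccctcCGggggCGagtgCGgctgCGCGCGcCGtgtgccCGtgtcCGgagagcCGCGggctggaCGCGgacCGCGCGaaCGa
Kcnab2: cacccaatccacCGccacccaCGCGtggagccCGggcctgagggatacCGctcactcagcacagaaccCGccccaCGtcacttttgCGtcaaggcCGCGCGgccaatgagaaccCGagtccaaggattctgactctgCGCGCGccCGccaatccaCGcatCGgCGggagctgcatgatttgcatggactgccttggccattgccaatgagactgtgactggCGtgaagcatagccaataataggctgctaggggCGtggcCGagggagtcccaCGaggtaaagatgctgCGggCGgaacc
Kcns3: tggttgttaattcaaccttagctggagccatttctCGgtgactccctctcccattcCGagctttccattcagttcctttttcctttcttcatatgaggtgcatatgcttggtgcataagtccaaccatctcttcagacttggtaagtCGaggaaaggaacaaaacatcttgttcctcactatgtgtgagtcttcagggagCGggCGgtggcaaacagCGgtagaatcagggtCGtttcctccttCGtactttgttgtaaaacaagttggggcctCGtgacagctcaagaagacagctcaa
Kcna5: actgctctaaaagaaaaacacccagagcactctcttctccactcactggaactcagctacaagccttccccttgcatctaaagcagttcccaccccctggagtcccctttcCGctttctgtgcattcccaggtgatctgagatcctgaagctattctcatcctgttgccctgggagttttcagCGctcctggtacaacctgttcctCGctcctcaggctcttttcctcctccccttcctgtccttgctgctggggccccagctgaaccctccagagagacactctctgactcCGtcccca
Kcna10: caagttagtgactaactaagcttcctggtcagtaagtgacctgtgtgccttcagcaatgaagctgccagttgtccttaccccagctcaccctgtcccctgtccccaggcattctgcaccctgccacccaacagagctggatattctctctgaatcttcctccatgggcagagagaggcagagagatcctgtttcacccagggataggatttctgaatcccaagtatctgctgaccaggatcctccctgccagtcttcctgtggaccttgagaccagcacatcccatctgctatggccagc
Kcne4: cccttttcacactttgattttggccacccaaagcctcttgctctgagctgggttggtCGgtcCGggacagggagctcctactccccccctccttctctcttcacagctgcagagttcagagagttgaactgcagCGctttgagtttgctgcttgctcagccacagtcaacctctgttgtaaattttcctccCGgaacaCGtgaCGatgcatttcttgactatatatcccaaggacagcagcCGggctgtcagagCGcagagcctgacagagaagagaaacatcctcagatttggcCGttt
In that order they lie at chr7:46396218-46396517 on the plus strand, chr4:152477500-152477799, chr12:11150793-11151092 and chr6:126535506-126535805 on the minus strand, and chr3:107182893-107183192 and chr1:78816661-78816960 on the plus strand. Kcnc1 has 41 CG, a number reached by 4.60% of the 15687 promoters in the RefSeq table (CG searched on 1 strand, being its own reverse complement), whereas Kcnab2 has 25, Kcns3 and Kcne4 have 9 each, Kcna5 has 4 and Kcna10 has 0. The median over the 30 members in the table was 19.5 CG, against 15 over the table. A CpG-rich and a CpG-free promoter thus both belonged to genes whose windows held more of the mark in Kdm6b-cKO. The 9 CG of Kcns3, which was marked in Kdm6b-cKO, were also the number in the unmarked Kcne4. Within 0.5 kb of the GENCODE start these 2 genes differed, with 34 and 14 CpG per kb. Median densities were 52 for the 36 members marked in all 4 libraries, 35 for the 8 marked in 1 to 3 and 20.5 for the 2 marked in none. Over all genes they were 50 (marked in all 4) and 43 (in none).

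The mark was widespread over these genes in both genotypes. In Kdm6b-cKO replicates 3 and 4, 43 and 42 of the 46 promoters were marked, against 37 and 38 in WT replicates 7 and 9, or 93.5% and 91.3% against 80.4% and 82.6%. Over all 20807 genes the shares were 25.6% and 24.5% in Kdm6b-cKO cells, against 19.5% and 16.1% in WT cells. Marking in at least 1 library was found for 44 members (95.7%), compared with 27.9% of all genes, and marking in all 4 libraries for 36 (78.3%), compared with 15.1%. The other potassium channel families (inward rectifier, 2-pore and calcium-activated channels) had 33 of 41 genes marked in at least 1 library, and the voltage-gated calcium and sodium channel genes 25 of 39. No test was made of these differences between families. The exceptions were Kcnab1 and Kcne4, whose promoters and wider windows held no peak in any library.

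The plot of coverage by distance shows where the mark lay. In the first 0.5 kb after the TSS (its middle at 0.25 kb), peaks covered 86.4% and 87.2% of member bases in Kdm6b-cKO cells, against 67.2% and 68.1% in WT cells. Around 20 kb downstream, at 20.25 kb, coverage was 24.1% and 31.3% in Kdm6b-cKO cells, against 8.5% and 6.3% in WT cells. Both Kdm6b-cKO libraries lay above both WT libraries in 12 of the 12 steps within 3 kb of the TSS and in 193 of the 200 steps drawn, compared with 200 of 200 over all genes.

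**Figure D1:**
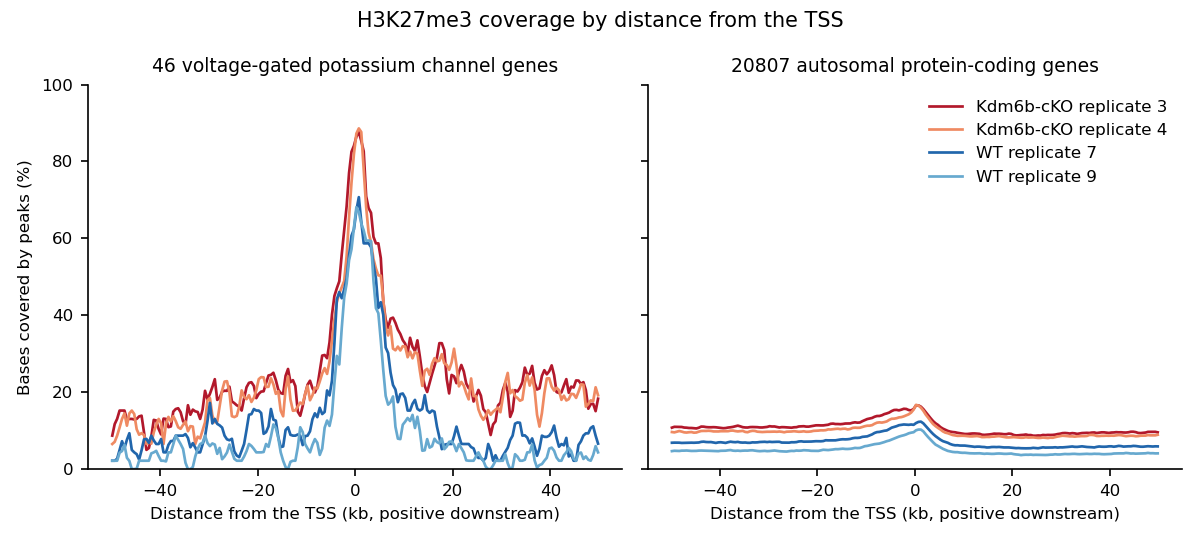
Percentage of bases under H3K27me3 peaks (vertical axis) in steps of 0.5 kb by distance from the TSS in kb (horizontal axis, positive downstream), for the 46 members (left) and all 20807 autosomal protein-coding genes (right), 1 line per library. Just after the TSS the members reached 86.4% and 87.2% in Kdm6b-cKO and 67.2% and 68.1% in WT, against 16.6% and 16.7% in Kdm6b-cKO and 12.0% and 10.1% in WT over all genes.

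Peaks at member promoters ranked high within their own libraries. The longest peak at each member promoter with a peak had a median percentile of 94.9 and 94.8 among all autosomal peaks by q value in Kdm6b-cKO cells, against 90.9 and 87.7 in WT cells. At all promoters with a peak the medians were 88.6 and 87.6 in Kdm6b-cKO cells, against 85.7 and 84.1 in WT cells. The length of the peak had a median of 8.53 and 7.39 kb in Kdm6b-cKO cells, against 7.94 and 6.09 kb in WT cells, and over all promoters with a peak of 5.65 and 5.03 kb in Kdm6b-cKO cells, against 5.04 and 4.39 kb in WT cells. Peaks over 10 kb long stood at 21 and 19 members in Kdm6b-cKO cells, against 15 and 6 in WT cells. These were 48.8% and 44.2% of the members with a peak in Kdm6b-cKO, against 39.5% and 15.8% in WT. Over all promoters with a peak the shares were 30.5% and 26.3% in Kdm6b-cKO, against 26.5% and 21.1% in WT, so that in WT replicate 9 the members lay below them.

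In the windows of 25 kb on each side, summed over the 46 genes, peaks covered 776.7 and 726.0 kb in Kdm6b-cKO cells, against 478.7 and 361.2 kb in WT cells. The groups did not overlap, and the ratio of their means was 1.79 (SD 0.364, n = 2 per group), compared with 1.65 over all genes. When each library was cut to its strongest peaks until it covered the 55.3 Mb of the smallest, the ratio was 1.35 over the members and 1.09 over all genes. In the same cut lists it was 1.35 over the other potassium channel genes and 1.53 over the calcium and sodium channel genes, so the excess was not particular to the members. No member window overlapped another, but 14 windows held the TSS of another protein-coding gene, so a peak in them need not belong to the channel gene.

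Gene by gene, both Kdm6b-cKO libraries covered more of the wider window than either WT library at 34 of the 44 members with at least 500 bp covered in any library (77.3%), and the background over all such genes was 66.2%. The reverse order was found for 1 member, Kcnh5, where the background was 1.61%. The linear model fitted to all genes (limma with Benjamini-Hochberg adjustment at 0.05) called 11 of the 44 members higher in Kdm6b-cKO in the wider window (25%), where 10.3% of the 11213 genes tested were called higher. It called 0 members lower, while before adjustment (p under 0.05) 22 were higher and 0 lower, and 0% of all genes were lower (14 before adjustment). Of the 11213 genes tested, 3956 were higher before adjustment. The median difference of the 44 was 4.66 kb, compared with 2.39 kb over all genes tested. Those 11 calls depended on the settings, since 0 remained with libraries cut to equal covered length (9 higher and 2 lower before adjustment), and leaving out 1 library gave 20 for WT replicate 7 and 0 for WT replicate 9, Kdm6b-cKO replicate 3 or Kdm6b-cKO replicate 4 (20, 14 and 16 before adjustment). Over all genes the first of these fits called 20.5% higher and the other three called 0, so those zeros held for every gene. Under equal covered length 0.55% of all genes tested were called higher, and before adjustment 1172 of 8000 were higher and 793 lower. With every library centred on its mean over the genes tested, 16 members were called higher and 1 lower, and all genes split into 1532 higher and 678 lower in place of 1152 and 0.

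**Figure D2:**
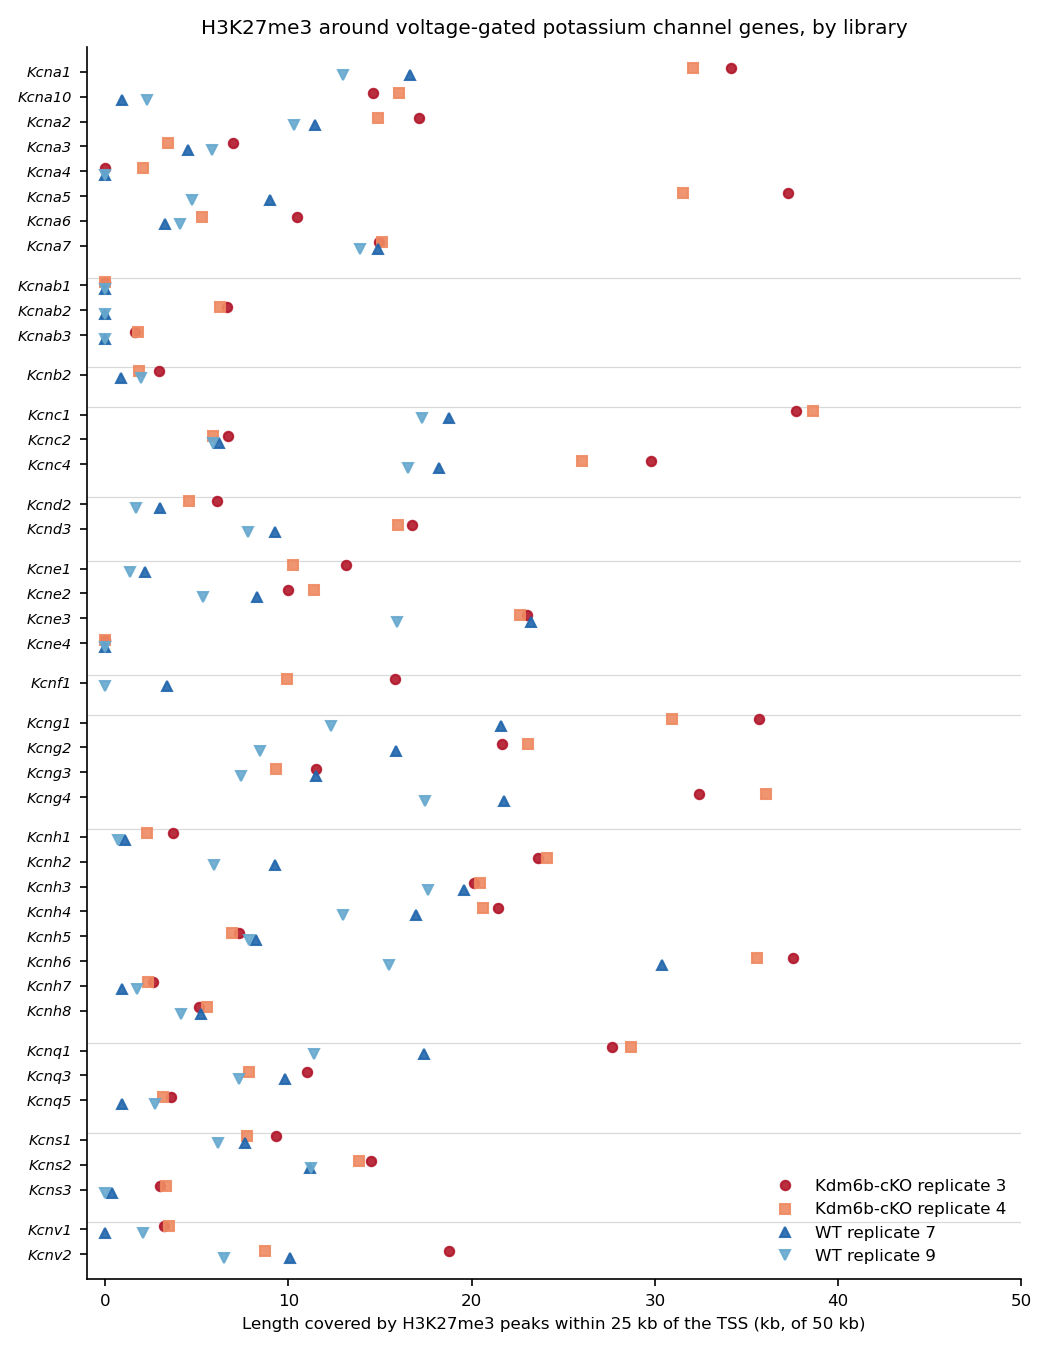
Length under H3K27me3 peaks within 25 kb of the TSS in kb (horizontal axis, of 50 kb) for 42 of the 46 members (rows, grouped by subfamily), 1 symbol per library, with Kdm6b-cKO in red and orange and WT in blue. At 30 of those drawn both Kdm6b-cKO symbols lie to the right of both WT symbols, at Kcnh5 they lie to the left, and at Kcnab1 and Kcne4 all 4 lie at 0.

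Within the promoters alone fewer members passed. The median difference there was 8.82 points over the 44 members tested, below the 11.20 points over all genes tested. The same model called 3 of 44 members higher in Kdm6b-cKO and 0 lower (before adjustment 11 were higher and 0 lower), against a background of 7.75% higher and 0.0861% lower among the 5806 genes tested. Before adjustment 1476 of those 5806 genes were higher and 41 lower, a share near that of the members. Marking in the 2 Kdm6b-cKO libraries and in no WT library was found for the same 3 genes, Kcnab2, Kcnab3 and Kcns3, which is 6.82% of the 44 and compares with 14.8% of all promoters marked in any library. All 3 met the 500 bp filter only through Kdm6b-cKO, which favours a higher call. Without that filter the model called 0 members and 0.706% of all genes higher at the promoter. The mirror pattern, WT alone, was found for 0. Full coverage of the promoter leaves no room for a gain at this width, and 21 and 15 members were fully covered in Kdm6b-cKO cells, against 17 and 9 in WT cells. Kcna2, Kcnc4, Kcnh3, Kcnq1 and Kcns2 were among the 7 members fully covered in all 4 libraries. The 3 promoter calls became 6 when WT replicate 7 was left out (9.97% of all genes), 5 for Kdm6b-cKO replicate 4 (21.5%), 4 for Kdm6b-cKO replicate 3 (20.2%) and 0 for WT replicate 9 (0%, with 10 members before adjustment). Leaving out either Kdm6b-cKO library also gave 1 member called lower.

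The Kcna genes code for the Shaker-type pore subunits, which in neurons set firing threshold along the axon. Peaks in the windows of the 8 genes summed to 135.5 and 120.5 kb in Kdm6b-cKO cells, against 60.7 and 54.1 kb in WT cells. The ratio was 2.23, against 1.65 over all genes. Ratios also lay above 1.65 for Kcnb (1.98), Kcnd (1.995), Kcnf (7.68, 1 gene), Kcng (1.72), Kcnq (1.94) and Kcnv (1.84). They lay below it for Kcnc (1.52), Kcne (1.61), Kcnh (1.51) and Kcns (1.41). Kcnab had no ratio, since its windows held no peak in WT. Of the 8 Kcna genes 3 passed in the wider window.

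Kcna5, the pore subunit of an ultrarapid current of human heart, had 37.25 and 31.5 kb covered in Kdm6b-cKO cells, against 8.97 and 4.75 kb in WT cells. The groups were far apart, with a difference of 27.53 kb ± 2.75 (SE, n = 2 per group, limma adjusted p = 0.0314), and of 7.46 kb ± 4.72 (SE, limma adjusted p = 0.457) when libraries were cut to equal covered length. Its promoter was covered to 92.8% and 79.4% in Kdm6b-cKO cells, against 12.5% and 20.4% in WT cells, and this difference of 69.6 points just missed the threshold (limma adjusted p = 0.0504). Kcna1, the subunit mutated in human episodic ataxia with myokymia, had 34.2 and 32.1 kb covered in Kdm6b-cKO cells, against 16.7 and 13.0 kb in WT cells. Its promoter was already marked in all 4 libraries, and the window differed by 18.30 kb ± 1.71 (SE, limma adjusted p = 0.0299), against 6.43 kb in the cut lists (limma adjusted p = 0.244). Kcna10, a Shaker relative, had 14.6 and 16.1 kb in Kdm6b-cKO cells, against 0.924 and 2.27 kb in WT cells. That gain of 13.73 kb ± 0.98 (SE, limma adjusted p = 0.0246) lay mostly outside the promoter, which was covered to 17.5% in Kdm6b-cKO replicate 3 and to 0% in the other three libraries. In the cut lists the Kcna10 difference came to 0.071 kb (limma adjusted p = 0.976).

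Kcna5, Kcna1 and Kcna6 stand in a row on chromosome 6, with no other protein-coding TSS in the 255.3 kb between positions 126510412 and 126765674 (mm10, from 25 kb before the first to 25 kb past the last TSS). This stretch held 32 and 33 peaks over 123.3 and 99.4 kb in Kdm6b-cKO cells, against 18 and 17 peaks over 37.1 and 28.9 kb in WT cells. Coverage was thus 48.3% and 38.9% in Kdm6b-cKO cells, against 14.5% and 11.3% in WT cells, and the groups did not overlap. In WT the longest peak lay over Kcna1, at 15.1 and 9.97 kb (replicates 7 and 9). Over the same gene the peak was 23.4 and 17.6 kb long in Kdm6b-cKO.

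**Figure D3:**
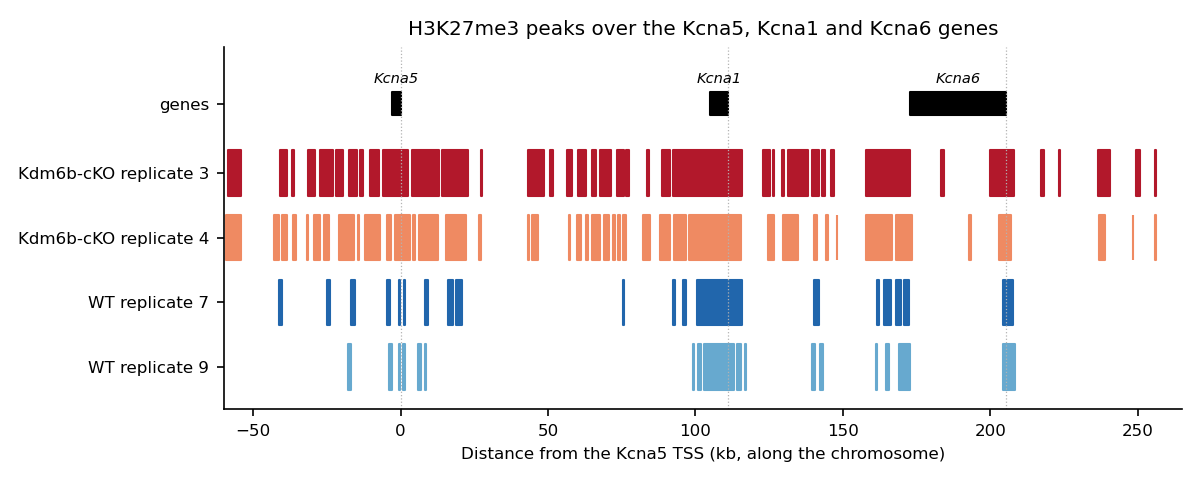
H3K27me3 peaks (coloured blocks, 1 row per library) over the Kcna5, Kcna1 and Kcna6 genes (black blocks), by distance along chromosome 6 from the Kcna5 TSS in kb (horizontal axis). Dotted lines mark the 3 start sites. Kdm6b-cKO libraries hold 32 and 33 peaks in the stretch and WT libraries 18 and 17, and in both genotypes the longest block lies over Kcna1.

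The remaining Kcna genes varied. Kcna2 and Kcna6 stood higher in both Kdm6b-cKO libraries without passing. Kcna7, a muscle channel, had 14.9 and 15.1 kb covered in Kdm6b-cKO cells, against 14.9 and 13.9 kb in WT cells, so that its 4 libraries were nearly alike. Kcna3, a lymphocyte channel, and Kcna4 overlapped between the groups, and the promoter of Kcna4 was covered only in Kdm6b-cKO replicate 4 (34.7%).

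The Shab, Shaw and Shal relatives (Kcnb, Kcnc and Kcnd) carry delayed rectifier, fast-spiking and A-type currents. Kcnc1, whose product lets neurons fire fast, had 37.7 and 38.6 kb in Kdm6b-cKO cells, against 18.7 and 17.3 kb in WT cells. It gave the smallest adjusted p of the members at this width, with a difference of 20.15 kb ± 0.90 (SE, limma adjusted p = 0.0207), and its window holds the TSS of the muscle regulator Myod1 at -20.0 kb (upstream). Kcnc4 had 29.8 and 26.0 kb in Kdm6b-cKO cells, against 18.2 and 16.5 kb in WT cells, and was called with a difference of 10.52 kb ± 1.69 (SE, limma adjusted p = 0.0498).

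Kcnd3, an A-type channel of heart and brain, had 16.8 and 16.0 kb in Kdm6b-cKO cells, against 9.28 and 7.80 kb in WT cells, and it rose by 7.85 kb ± 0.89 (SE, limma adjusted p = 0.0344). Kcnb2 and Kcnc2 overlapped between the groups, and Kcnd2 stood higher in both Kdm6b-cKO libraries without passing.

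Silent subunits (Kcnf, Kcng, Kcns and Kcnv) form no channel alone and change the gating of Kcnb partners. Kcns3 had 2.97 and 3.33 kb covered in Kdm6b-cKO cells, against 0.397 and 0 kb in WT cells, and its promoter was covered to 49.5% and 55.5% in Kdm6b-cKO cells, against 6.62% and 0% in WT cells. The promoter rose by 49.2 points ± 3.98 (SE, limma adjusted p = 0.0397). Only Kdm6b-cKO libraries met the 500 bp filter there, and without the filter Kcns3 was not called (limma adjusted p = 0.204). Kcnf1 had 15.8 and 9.90 kb in Kdm6b-cKO cells, against 3.35 and 0 kb in WT cells. Although no library of one group reached the other, its difference of 11.20 kb ± 2.65 (SE) was not called (limma adjusted p = 0.0809), nor were the 59.3 points in its promoter (limma adjusted p = 0.0504).

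Kcng4 was the most covered of its subfamily, with 32.4 and 36.0 kb in Kdm6b-cKO cells, against 21.8 and 17.5 kb in WT cells. It rose by 14.61 kb ± 2.22 (SE, limma adjusted p = 0.0468). Kcns2, whose promoter was under peaks from end to end in each library, had 14.5 and 13.9 kb in Kdm6b-cKO cells, against 11.2 and 11.2 kb in WT cells, with no call (limma adjusted p = 0.0772). Kcnv2, a retinal subunit, had 18.8 and 8.75 kb in Kdm6b-cKO cells, against 10.1 and 6.51 kb in WT cells, so that the groups overlapped. Of the others Kcng1, Kcng2, Kcns1 and Kcnv1 stood higher in both Kdm6b-cKO libraries without passing, and Kcng3 overlapped.

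The Kcnq genes code for channels of slow, sustained currents, including the M-current of neurons and, with Kcne1, the slow repolarising current of heart (Kcnq1). Peaks in the windows of the 5 genes summed to 114.7 and 108.3 kb in Kdm6b-cKO cells, against 67.4 and 47.4 kb in WT cells, a ratio of 1.94. Kcnq1, which lies in an imprinted domain, had 27.7 and 28.7 kb in Kdm6b-cKO cells, against 17.4 and 11.4 kb in WT cells, and just missed the threshold with 13.77 kb ± 2.39 (SE, limma adjusted p = 0.0545). Peak lists do not separate the parental copies. Kcnq5 stood higher in both Kdm6b-cKO libraries without passing, and Kcnq3 overlapped.

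The Kcnh genes (ether-à-go-go relatives) were marked in all 4 libraries without exception, 8 of 8. The same held for every Kcnb, Kcnc, Kcnd, Kcng and Kcnq gene. Kcnh2, the hERG gene in human and a pore of the rapid repolarising current of heart, had 23.6 and 24.1 kb in Kdm6b-cKO cells, against 9.29 and 5.96 kb in WT cells. It rose by 16.22 kb ± 1.42 (SE, limma adjusted p = 0.0281), and the window holds the TSS of the endothelial nitric oxide synthase gene Nos3 at -13.2 kb (upstream). Kcnh6 was the most covered of the subfamily with 37.5 and 35.5 kb in Kdm6b-cKO cells, against 30.4 and 15.5 kb in WT cells, and was not called (limma adjusted p = 0.192).

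Kcnh5 ran the other way, with 7.29 and 6.93 kb in Kdm6b-cKO cells, against 8.22 and 7.83 kb in WT cells. The difference of -0.91 kb ± 0.66 (SE) did not pass (limma adjusted p = 0.391). Its promoter was covered to 93.5% and 82.8% in Kdm6b-cKO and to 100% in both WT libraries. Kcnh1, Kcnh3, Kcnh4 and Kcnh7 stood higher in both Kdm6b-cKO libraries without passing, and Kcnh8 overlapped.

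Among the auxiliary subunits, Kcne1 (minK), the single-pass partner of Kcnq1, had 13.1 and 10.3 kb in Kdm6b-cKO cells, against 2.17 and 1.36 kb in WT cells. It rose by 9.93 kb ± 1.29 (SE, limma adjusted p = 0.0395), and with libraries cut to equal covered length the difference turned to -0.679 kb (limma adjusted p = 0.644). Kcne3 had 23.0 and 22.7 kb in Kdm6b-cKO cells, against 23.2 and 16.0 kb in WT cells, so that the groups overlapped. Kcne2 stood higher in both Kdm6b-cKO libraries without passing, and Kcne4 had no peak.

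Kcnab2 and Kcnab3, cytoplasmic partners of the Kcna channels, had no peak in either WT window. Kcnab2 had 6.65 and 6.26 kb in Kdm6b-cKO cells, against 0 and 0 kb in WT cells, and its promoter was covered to 31.8% and 29.3% in Kdm6b-cKO. It was called at both widths, with 6.46 kb ± 0.65 (SE, limma adjusted p = 0.0316) and 30.6 points ± 1.27 (SE, limma adjusted p = 0.0190). Kcnab3 had 1.62 and 1.81 kb in Kdm6b-cKO cells, against 0 and 0 kb in WT cells, and was called at the promoter with 28.6 points ± 1.53 (SE, limma adjusted p = 0.0245). Both genes met the 500 bp filter only through Kdm6b-cKO, which favours a higher call. Without that filter neither promoter was called (limma adjusted p = 0.0723 for Kcnab2 and 0.111 for Kcnab3). The Kcnab2 window was still called (limma adjusted p = 0.0447), but its SE was then 0.185 kb, against 0.648 kb with the filter. Both WT values there were 0, so this call adds no independent support.

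The Kcnab2 promoter peak spanned 2.39 kb and 1.76 kb in Kdm6b-cKO replicates 3 and 4, at the 37.3 and 53.1 percentiles of its library by q value, and the Kcnab3 peak 1.62 and 1.81 kb, at the 48.8 and 44.5 percentiles. In the same libraries Kcnc1 reached the 99.2 and 98.7 percentiles, while the one promoter peak of Kcna10 stood at the 3.79 percentile and that of Kcna4 at the 28.5 percentile. The Kcnab2 peak began 1.09 and 1.20 kb past the Kcnab2 start, and the TSS of a neighbour, Nphp4, lies 1.17 kb past that start, so the peak cannot be given to either gene. Trappc1 starts at -2.28 kb (upstream) of Kcnab3. The Kcnab3 peak lay on the other side, from 0.339 to 1.96 kb past the Kcnab3 start in Kdm6b-cKO replicate 3 and from 0.375 to 2.19 kb in replicate 4. With libraries cut to equal covered length neither Kcnab gene had 500 bp left in any promoter, and Kcnf1 was the only member marked in the 2 Kdm6b-cKO and no WT library.

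In the lists cut to equal covered length 5 more of the windows called above lost the call. Kcnc1 then differed by 12.57 kb (limma adjusted p = 0.0526) and Kcnh2 by 8.20 kb (limma adjusted p = 0.0576), while Kcng4 differed by 7.45 kb, Kcnd3 by 5.59 kb and Kcnc4 by 4.44 kb. At the promoter Kcns3 differed by 27.7 points (limma adjusted p = 0.627).

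In gene bodies the count of members was near that of all genes, and no test was made. From start to end of each gene, peaks summed to 537.6 and 533.7 kb over the members in Kdm6b-cKO cells, against 278.4 and 199.1 kb in WT cells, a ratio of 2.24 where all genes gave 1.89. The 2 Kdm6b-cKO values lay above the 2 WT values at 30 of the 45 genes with at least 500 bp covered in the body (66.7%), where the background was 64.5%, and the reverse held for Kcnh5. Kcnab2 had 41.5 and 36.7 kb of 87.1 kb in Kdm6b-cKO cells, against 4.73 and 1.32 kb in WT cells. Kcnq1 had 56.2 and 49.9 kb of 320.7 kb in Kdm6b-cKO cells, against 16.8 and 6.05 kb in WT cells. In both genes the groups were well apart, and in Kcnab2 most of this length lay more than 25 kb from the start.

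The members' covered length went with the GC content of the window and little with the CpG density at the start. These are different measures, and neither was compared at both widths. Across the 46 genes the mean of the 4 libraries had a Spearman correlation of 0.70 with the GC content of the TSS ± 25 kb and of 0.0485 with the CpG density of the TSS ± 0.5 kb. Over all 20807 genes the correlation with GC content was 0.475. These are descriptions across genes that share the same 4 libraries, and sequencing and peak calling can themselves depend on GC content, whose part was not tested. Gene length went with it little (-0.145), although the 12 genes over 100 kb long had a median of 4.44 kb covered and the 34 shorter genes 14.1 kb.

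**Figure D4:**
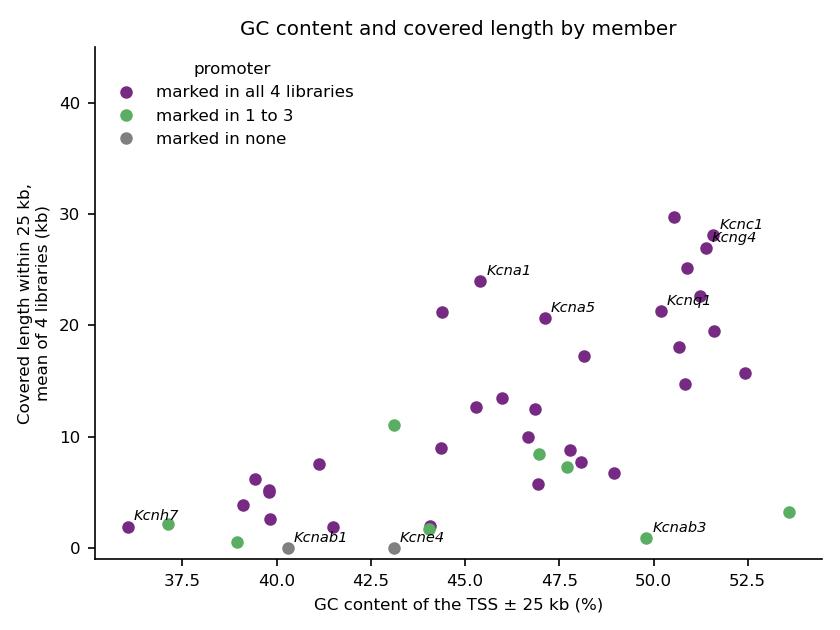
GC content of the TSS ± 25 kb in percent (horizontal axis) against covered length within 25 kb of the TSS in kb, mean of the 4 libraries (vertical axis), 1 point for each of 42 members, coloured by the number of libraries in which the promoter was marked. The 32 of them marked in all 4 libraries span 1.91 to 29.7 kb, and the longest values stand above 50% GC, while Kcnab3 shows a GC-rich window with almost no mark.

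Genes whose products work with these channels gave 0 calls, but they were too few to set this apart from the share over all genes. Of 18 such partner genes (Kcnip and Dpp subunits of Kcnd channels, and Dlg, Cntnap, Cntn2, Ank, Lgi1, Adam and Amigo1 genes of the axon complexes), 12 were marked in at least 1 library and 8 in all 4. The model called 0 of 14 in the wider window and 0 of 12 at the promoter (before adjustment 5 were higher and 0 lower in the window, and 1 was higher and 1 lower at the promoter), and their summed window length had a ratio of 1.54. Over all genes tested 10.3% and 7.75% were called higher at these widths, and the summed ratio over all genes was 1.65. By the same fit 6 of 38 other potassium channel genes and 8 of 32 calcium and sodium channel genes were called higher in the wider window, next to the 11 of 44 members. Their summed ratios were 1.78 and 1.83, close to the 1.79 of the members.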

How the data were processed

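H3K27me3 ChIP-seq of cultured dermal fibroblasts gave 4 peak lists, 2 Kdm6b-cKO and 2 WT. Per the labels and the methods, the authors aligned reads with Bowtie2 2.3.5.1 to mm10, brought libraries to like depth and called each library separately with MACS2 2.2.7.1 in broad mode. How the input entered the calling is not given in the sources used here. The deposited lists hold, per peak, an integer score, a fold enrichment ratio, a −log10 p and a −log10 q value. They hold no read counts, so no count test or interval was possible and the depth given in the methods could not be checked, and a gap means only that no peak passed the caller's threshold.

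Covered lengths of the promoter (TSS ± 3 kb) and the window (TSS ± 25 kb), using the 5′ end of each GENCODE M21 gene, were computed with Python 3.11.15 and tested with limma 3.58.1 (R 4.3.3) over all autosomal genes with at least 500 bp covered in any library, 5806 and 11213 genes, with no covariate. Fits were tested on simulated data drawn from unbounded normal values. Covered lengths are bounded, so that test does not cover genes at no or full coverage. Per-library values are given for members past limma at either width, members marked in 1 genotype alone, the most covered of each subfamily, and the 5 largest and 3 smallest differences. The single-gene values of 4 members are not reported here and those members are not drawn, but they stay in the counts and sums. Other genes named were picked with their values known. The members and lists were chosen with earlier results of these data known. Sequences come from RefSeq (GRCm38.p6), which matched 30 of the 46 members. Alternatives were peak number, covered length, peak threshold, TSS choice, filter, centring, window width, the cutoff for a marked promoter and leaving out each library.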

Additional observations from a re-analysis of the deposited data

How the results depend on the processing

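Lists cut to the 55.3 Mb of the smallest library gave 1 promoter call in place of 3, 0 window calls in place of 11, 1 gene marked in Kdm6b-cKO alone (in its 2 libraries and no WT library) in place of 3, and a summed ratio of 1.35 in place of 1.79. Over all genes tested those cut lists gave 2.80% higher at the promoter and 0.55% in the window. Lists cut to 19210 peaks each gave 6 window calls (4.80% of all genes tested). Peaks above the median −log10 q of 3.06 gave 3 (4.29%). Without the 500 bp filter there were 0 promoter and 1 window calls (0.706% and 0.865% of all genes). Windows of 10 kb on each side gave 1 call (4.76% of all genes tested) and a ratio of 1.42. Without the Kcnab genes 1 promoter call and 1 gene marked in Kdm6b-cKO alone were left, and a cutoff of 1500 bp gave 7 such genes. The share of all promoters marked in Kdm6b-cKO alone was taken only for the uncut lists at 500 bp (14.8%). Counts of such genes under the alternatives, here and below, therefore have no background and are not a result about the members. Leaving out 1 library gave 0 to 6 promoter calls, 0 to 20 window calls, 4 genes marked in Kdm6b-cKO alone in each case, and ratios of 1.57 to 2.08. In these fits a lone library is assumed to vary like the other group. Over 158 pairs of a called gene result and an alternative, 63 stayed called, 94 lost the call and 1 turned sign, Kcne1 at -0.679 kb with equal covered length, while 157 differences were positive. The cause was not tested. Alternatives in which a gene fell below the 500 bp filter, or was left out with the Kcnab genes, are not among these pairs. The promoters of Kcnab2 and Kcnab3 thus had 8 alternatives each and the Kcnab2 window 10, where the other results had 12. No paired analysis was possible because the groups share no replicate number. Every alternative named above in the processing was run.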
